A study of Mus musculus with 26 samples.

Results

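The Zfp genes of the mouse are the numbered members of the large family that encodes zinc finger proteins. In whole brain nuclei, 218 of 362 protein-coding genes named Zfp followed by a number alone reached a mean of at least 10 CPM (a gene's counts scaled to a common library total) over the 12 libraries of unsorted nuclei, called presort. These 218 genes are the members described here, out of 27502 features counted. They were chosen by these presort values, so levels in presort nuclei, and the contrast of presort nuclei with cytoplasm, are given as description without a test. The members just inside the minimum were Zfp382 at 10.5 CPM, Zfp438 at 10.4 CPM and Zfp59 at 10.3 CPM. Just outside it were Zfp109 at 9.95 CPM, Zfp563 at 9.86 CPM and Zfp966 at 9.78 CPM. In all, 4 of the 362 genes had no count in any library.

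The 26 RNA-seq libraries were made from the whole brain of adult mice, 6 to 12 weeks of age, all carrying a transgene that fuses EGFP to the ribosomal protein Rpl10a. On a background named B6.FVB, the neuron line carried Tg(Snap25-EGfp/Rpl10a)JD362Htz, the astrocyte line Tg(Aldh1L1-EGfp/Rpl10a)JD130Htz and the oligodendrocyte line Tg(Cnp-EGfp/Rpl10a)JD368Htz, so the promoter of Snap25, Aldh1l1 or Cnp set which nuclei were labelled. Each line gave 4 libraries of sorted nuclei and 4 of presort nuclei, 2 from females and 2 from males in each. Replicates are separate mice, and presort RNA was taken from each of the sorted mice, per the design text, so sorted and presort libraries share animals. The 2 cytoplasmic libraries hold whole brain cytoplasm, replicate 1 from a mouse of the astrocyte line labelled male and replicate 2 from a female of the oligodendrocyte line. No mouse without the transgene was among the samples. Replicate numbers run from 1 to 12 in males and from 25 to 36 in females, and the effect of sex cannot be told apart from that of any difference between these blocks.

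Most of these proteins carry tandem C2H2 zinc fingers, small folds in which cysteine and histidine residues hold a zinc ion and side chains of a helix read the bases of DNA. Many also carry a KRAB domain at the amino end. This domain recruits TRIM28 (KAP1), which brings the histone methyltransferase SETDB1 and heterochromatin protein HP1 to the bound site, a route best known for silencing retrotransposons and guarding imprinted methylation. KRAB zinc finger genes arose by repeated tandem duplication and lie in clusters, while zinc finger proteins without KRAB include regulators of neural differentiation, cofactors of chromatin enzymes, RNA-binding proteins and spindle proteins.

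The members followed this division. A KRAB sequence pattern (Asp-Val, any 3 residues, Phe or Leu, any 3 residues, Glu-Trp) was found in the longest annotated protein of 84 members and not in the other 134. Those with the pattern are called KRAB members here. The pattern misses any KRAB domain that differs from it, so the other 134 are not shown to lack the domain. Canonical C2H2 fingers were found in 216 members, with a median of 10 and a maximum of 36 in Zfp142, and Zfp462 and Zfp619 had 33 each. The pattern found no finger in Zfp365, a DISC1-binding protein, or in Zfp703, a corepressor of the Nlz type. Of the members, 132 lay within 500 kb of another protein-coding Zfp gene, which held for 70 of the 84 KRAB members and 62 of the other 134. Chromosome 7 alone held 60 members. Sequence shared with other genes bears on how reads were assigned: 16 members had more than 10% of their 50-base exon words in another gene, and Zfp58 and Zfp59 had more than 50%. The other gene may be a paralogue or a gene that overlaps by position, which this count does not separate. A further limit is that 66 members share exonic sequence by position with another annotated gene. Beside Zfp276 and Zfp219, these include Zfp91, Zfp106, Zfp335, Zfp407, Zfp414, Zfp532, Zfp644, Zfp703, Zfp704, Zfp706, Zfp740, Zfp748, Zfp800 and Zfp882, all named further on.

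Promoters of 4 members are shown because these genes gave type-restricted results described further on: Zfp57, Zfp101 and Zfp14 were highest in sorted oligodendrocyte nuclei and Zfp641 in sorted astrocyte nuclei. Each window runs from 250 bases before to 50 bases after a RefSeq start site (GRCm38.p6, 5′ to 3′ on the gene's strand), with CpG dinucleotides in capitals. Zfp57 (chr17:37000913-37001212, plus strand) had 6 CpG, Zfp101 (chr17:33394588-33394887, minus strand) had 13, Zfp14 (chr7:30051347-30051646, minus strand) had 12 and Zfp641 (chr15:98296112-98296411, minus strand) had 26.
Zfp57: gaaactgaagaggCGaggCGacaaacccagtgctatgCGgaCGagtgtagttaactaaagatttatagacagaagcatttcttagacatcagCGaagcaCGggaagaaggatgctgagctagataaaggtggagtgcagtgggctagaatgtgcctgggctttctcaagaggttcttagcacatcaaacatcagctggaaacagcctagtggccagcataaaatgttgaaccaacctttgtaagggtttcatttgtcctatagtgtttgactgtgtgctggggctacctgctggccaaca
Zfp101: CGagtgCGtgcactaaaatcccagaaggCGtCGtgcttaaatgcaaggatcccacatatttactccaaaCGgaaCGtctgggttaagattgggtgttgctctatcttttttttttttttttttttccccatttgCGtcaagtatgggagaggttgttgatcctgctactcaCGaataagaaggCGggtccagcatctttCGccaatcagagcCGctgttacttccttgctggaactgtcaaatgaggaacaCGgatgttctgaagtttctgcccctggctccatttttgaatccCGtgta
Zfp14: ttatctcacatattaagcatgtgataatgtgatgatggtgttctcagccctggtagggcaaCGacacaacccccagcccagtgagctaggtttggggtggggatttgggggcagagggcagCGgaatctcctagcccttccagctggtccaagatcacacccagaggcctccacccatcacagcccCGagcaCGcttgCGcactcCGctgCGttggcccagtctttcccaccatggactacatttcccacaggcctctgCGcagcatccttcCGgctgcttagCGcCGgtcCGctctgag
Zfp641: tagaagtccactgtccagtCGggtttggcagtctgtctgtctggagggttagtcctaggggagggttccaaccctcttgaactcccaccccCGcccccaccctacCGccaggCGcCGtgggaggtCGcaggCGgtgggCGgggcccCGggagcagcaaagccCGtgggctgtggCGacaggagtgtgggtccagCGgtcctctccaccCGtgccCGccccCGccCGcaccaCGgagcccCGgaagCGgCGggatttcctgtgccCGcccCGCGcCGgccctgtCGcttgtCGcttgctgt
Zfp57 has 3 RefSeq start sites, and the one shown is the start of the annotated gene. Of these windows, the one of Zfp641 held 5 GC boxes (GGGCGG on either strand) and the others held 0. Promoter windows were found for 175 members, 215 windows in all. Their median was 17 CpG, against 13 over 21263 windows of all protein-coding genes. A GC box occurred in 47.4% of members' windows and 46.2% of these protein-coding windows, and a CCAAT box (CCAAT, either strand) in 41.9% and 38.2%. The SOX motif ACAAAG occurred in 17.7% and 16.8%, and the E box CANNTG in 67% and 69%, both on either strand. Motif matches are descriptions of letters only, and these shares lay near those of all protein-coding promoters.

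Most members were low. The median over members of the mean presort level was 29.1 CPM, against 39.7 CPM for the protein-coding genes that passed the same minimum, and 67 members were below 20 CPM while 30 exceeded 100 CPM. At the depth of the presort libraries this meant a median of 8 reads per member and library, and 162 members had a read in all 12 presort libraries. Per kilobase of exon, Zfp207 led with 68.5 CPM per kb. It encodes BuGZ, a microtubule-binding protein that loads BUB3 onto kinetochores. Zfp414 followed with 50.3 CPM per kb, Zfp532 with 47.3 CPM per kb, Zfp521 with 40.8 CPM per kb and Zfp62 with 37.7 CPM per kb (Zfp414 was named after its value was seen). Zfp414 has 24.7% of its exon words in another gene and shares exonic sequence by position, so its level is uncertain. The median member had 6.09 CPM per kb. KRAB members were lower than the rest, with a median of 4.99 CPM per kb against 6.62, and 5 of 84 against 25 of 134 exceeded 100 CPM in mean presort level.

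Depth and purity limit what follows. Total counts ranged from 134357 to 4461568 per library, so that 3 counts correspond to between 0.672 and 22.3 CPM. Summed markers of the sorted type were high in each sort: neuron markers reached 10146 to 15150 CPM in sorted neuron nuclei and 420 to 1354 CPM in the other sorted libraries. Astrocyte markers reached 20155 to 23697 CPM in sorted astrocyte nuclei against 251 to 1532 CPM, and oligodendrocyte markers 28171 to 37507 CPM in sorted oligodendrocyte nuclei against 1146 to 2181 CPM. Ependymal and choroid plexus markers ranged from 509 to 6981 CPM within sorted astrocyte nuclei. Sorted oligodendrocyte replicate 36 stood apart: it had 7674 genes detected, 135 of the 218 members detected, a median member level of 3.12 CPM and 0 counts of the GFP transgene, against 79 to 155 in the rest of its group. Results are therefore given with and without it. Sorted astrocyte replicate 30, the shallowest library, had 193 members detected. Counts over 4 Y-linked genes were 22 to 590 in male nuclear libraries and 0 or 1 in female ones, but 1 in the cytoplasmic library labelled male. That library's label therefore goes against its Y-linked counts, and no direction by sex is drawn from cytoplasm.

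As a group, members took a similar share of the RNA in every kind of nucleus. Their summed level was 10799 to 13915 CPM in presort nuclei, 9594 to 13720 CPM in sorted neuron nuclei, 10183 to 12422 CPM in sorted astrocyte nuclei and 11857 to 13029 CPM in sorted oligodendrocyte nuclei, and these ranges overlapped. In cytoplasm the sums were 10083 and 7232 CPM. The first of these lies within the range of sorted neuron nuclei and below presort nuclei, and the second lies below every nuclear library. KRAB members differed most between the cytoplasmic libraries, at 2612 and 1033 CPM, against 2336 to 4082 CPM in presort nuclei and 2300 to 4468 CPM in sorted nuclei. The members without the KRAB pattern summed to 7471 and 6199 CPM in cytoplasm and 7998 to 9997 CPM in presort nuclei, with the lowest sorted library, neuron replicate 2, at 7294 CPM. Presort values in these sums chose the members and are description only.

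**Figure D1:**
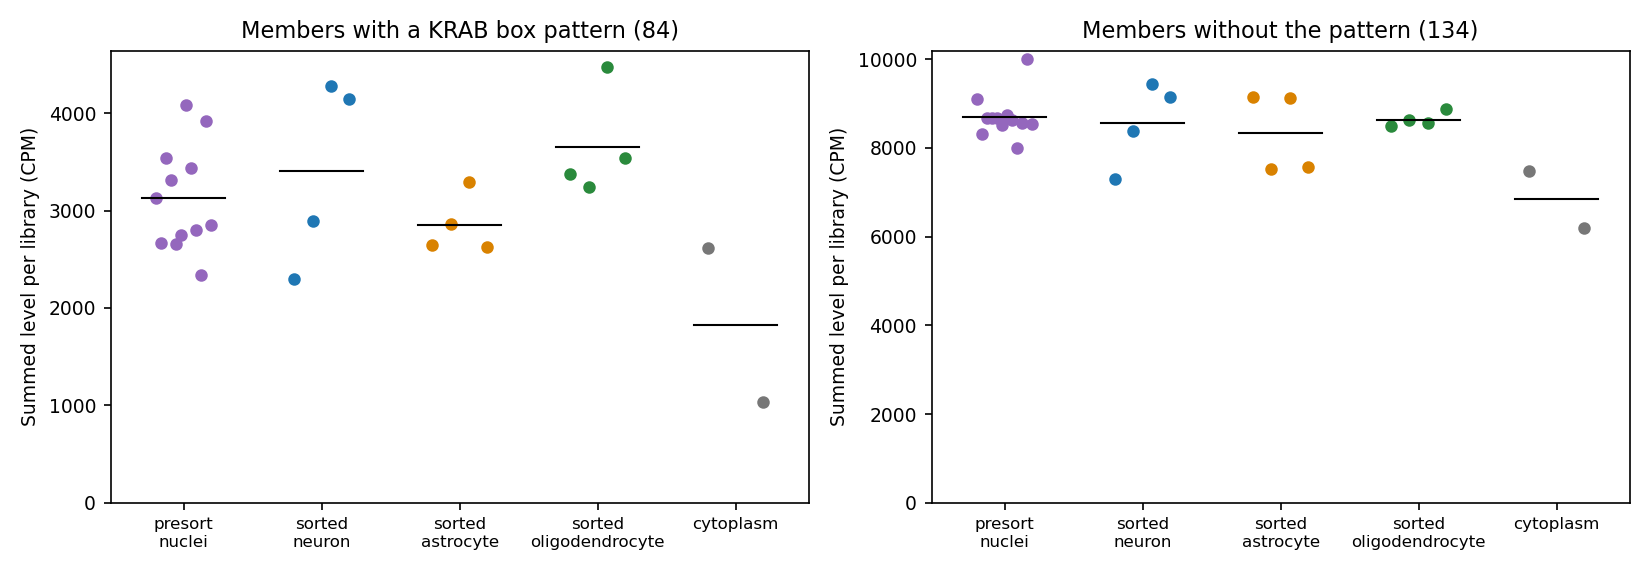
Summed level per library in CPM for the 84 members with a KRAB pattern (left) and the 134 without (right), with 1 point per library and a line at the group's mean. The nuclear groups overlap, and the lower cytoplasmic points, 1033 and 6199 CPM, lie under every nuclear library.

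Among the sorted types, few members passed the test. Counts were tested with edgeR's quasi-likelihood test over all genes and adjusted by Benjamini-Hochberg, at 0.05, and 217 members could be tested, Zfp217 being below the filter on low counts. Between neuron and astrocyte nuclei 3 members were higher in neurons and 2 in astrocytes, which is 2.30% of members, against 19.4% of all genes tested (8.02% higher and 11.4% lower in neurons). Between neuron and oligodendrocyte nuclei 4 members were higher in neurons and 18 in oligodendrocytes, 10.1% of members, against 23.1% of all genes (10.7% and 12.4%). Between astrocyte and oligodendrocyte nuclei 7 members were higher in astrocytes and 11 in oligodendrocytes, 8.29% of members, against 17.1% of all genes (9.62% and 7.49%). Each of these shares lay below the background. Among protein-coding genes with the same presort minimum the shares called were 18.8%, 23.4% and 16.7%.

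Oligodendrocyte replicate 36 bore on these counts. Without it, 13 members passed as neuron-high and 23 as astrocyte-high, 16.5% of 218 against 37.6% of all genes. The counts became 12 higher and 31 lower in neurons against oligodendrocytes (19.7%, against 35.4%), and 14 higher and 11 lower in astrocytes against oligodendrocytes (11.5%, against 26.3%). All 5 calls between neurons and astrocytes were among those made without the library, as were 18 of 22 and 15 of 18 in the comparisons with oligodendrocytes. Leaving out 1 other library lowered the counts by over 1.5 times in several cases: to 1, 2, 3 and 3 calls between neurons and astrocytes without astrocyte replicates 32, 6 and 8 and neuron replicate 26, to 14, 12 and 14 between neurons and oligodendrocytes without neuron replicates 26, 28 and 4, and to 11 between astrocytes and oligodendrocytes without astrocyte replicate 32 or 6. Without scaling factors the split turned to 5 higher and 10 lower for neurons against oligodendrocytes and to 7 higher and 6 lower for astrocytes against oligodendrocytes. For these other fits the shares of all genes are not given here, so their counts show only how calls move with the setting. Median log2 differences of members were 0.01 for neuron minus astrocyte, 0.04 for neuron minus oligodendrocyte and 0.01 for astrocyte minus oligodendrocyte, against 0.05, 0.16 and 0.11 over all genes. Without replicate 36 they were 0.02, -0.13 and -0.19, against 0.02, 0.02 and -0.05. The highest mean CPM was in neurons for 106 members, in astrocytes for 65 and in oligodendrocytes for 47, and without replicate 36 for 98, 55 and 65. In bulk RNA of a sort, fewer cells of a type and less RNA per cell cannot be told apart.

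**Figure D2:**
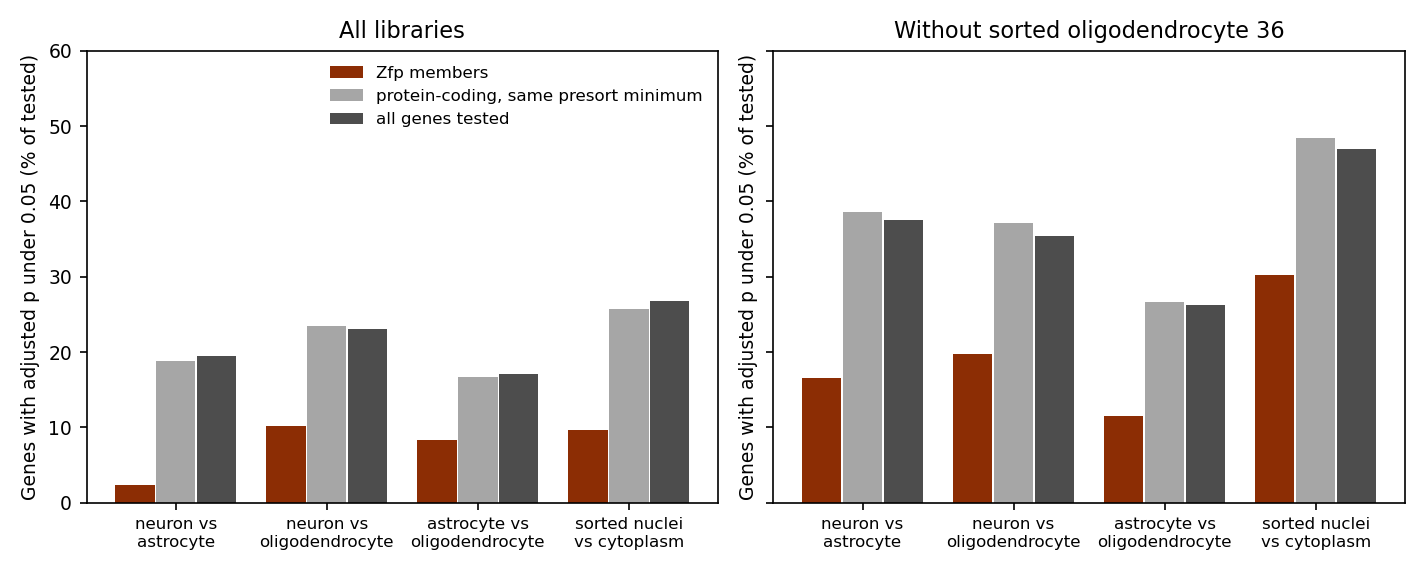
Share of genes with adjusted p under 0.05 (edgeR) in each comparison, in percent of those tested, for the Zfp members, for protein-coding genes with the same presort minimum and for all genes, with all libraries (left) and without sorted oligodendrocyte replicate 36 (right). The members' bar is the lowest in every comparison drawn, for example 10.1% against 23.1% of all genes between neurons and oligodendrocytes.

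Oligodendrocyte nuclei had the most members above both other types. By the rule of adjusted p under 0.05 and a log2 difference over 1 against each of the others, 8 members were enriched in oligodendrocytes (5.36% of all genes met this rule), namely Zfp57, Zfp14, Zfp169, Zfp101, Zfp622, Zfp275, Zfp276 and Zfp704. There were 2 in astrocytes (5.82% of all genes), Zfp641 and Zfp516, and 2 in neurons (5.21% of all genes), Zfp711 and Zfp599. The last of these passed the filter on low counts through neuron libraries alone. Without replicate 36 the sets were 9 in oligodendrocytes, 6 in astrocytes and 4 in neurons, out of 218 members. Over all 13560 genes tested they were 969, 1282 and 1247 in the same order. With and without replicate 36, each set was a smaller share of the members than of all genes. Of the 8 oligodendrocyte members, Zfp622 and Zfp275 were no longer in the set without replicate 36, and Zfp740, Zfp358 and Zfp239 joined.

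Zfp57 showed the largest difference between types. It encodes a KRAB zinc finger protein that binds methylated imprinting control regions and, with TRIM28, maintains their DNA methylation after fertilisation. Its level was 663, 777, 828 and 8.74 CPM in sorted oligodendrocyte nuclei (replicates 10, 12, 34 and 36). In neuron nuclei (2, 4, 26 and 28) it was 12.1, 66.4, 30.3 and 27.8 CPM, and in astrocyte nuclei (6, 8, 30 and 32) 1.71, 14.4, 0 and 13.3 CPM. Cytoplasm had 14.1 and 13.1 CPM. The first 3 oligodendrocyte libraries lay far above all others, while replicate 36 fell within the range of the other types. The log2 difference was -4.35 for neuron minus oligodendrocyte (SE 0.94, edgeR adjusted p = 0.00332) and -6.05 for astrocyte minus oligodendrocyte (SE 1.05, adjusted p = 5.68e-04). Without replicate 36 these were -4.78 and -6.38. Both calls held when any 1 library was left out.

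Zfp57 lies at chr17:37001163-37010635 on the plus strand (GENCODE M21, GRCm38), tail to tail with Mog at chr17:37010743-37023398 on the minus strand, 107 bases away. Mog encodes myelin oligodendrocyte glycoprotein, a protein of the outer myelin surface. Its level was 577, 410, 479 and 292 CPM in oligodendrocyte nuclei, at most 8.77 CPM in neuron and at most 6.64 CPM in astrocyte nuclei, and 19.3 and 34.8 CPM in cytoplasm. Replicate 36 thus had Mog counts at 292 CPM with Zfp57 at 8.74 CPM. The library kit keeps no strand, so reads running past the end of Mog cannot be separated from reads of Zfp57, and their part in the Zfp57 values was not tested. The promoter window of Zfp57 shown above is poor in CpG beside the members' median of 17.

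**Figure D3:**
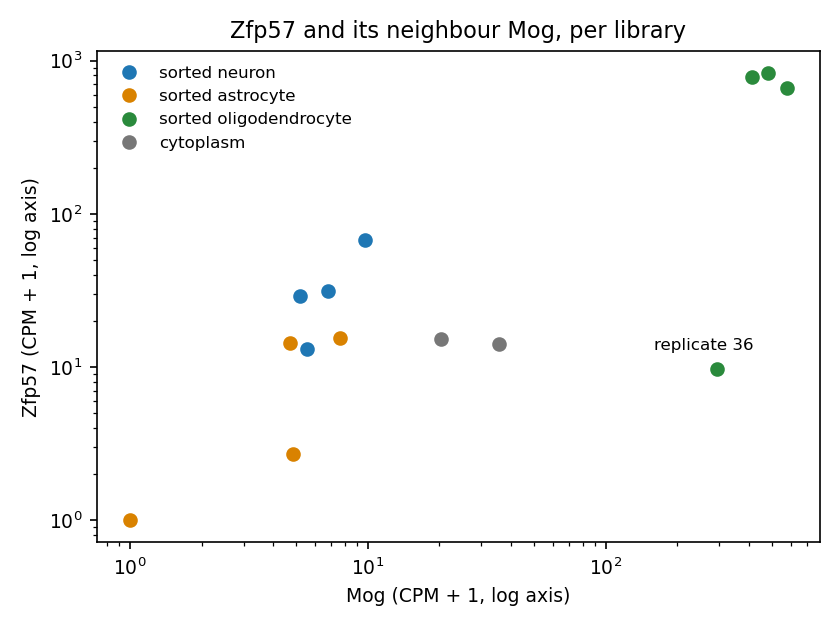
Zfp57 (vertical) against its neighbour Mog (horizontal), each as CPM + 1 on a log axis, 1 point per sorted or cytoplasmic library. In 3 oligodendrocyte libraries both genes are high, while replicate 36 has 8.74 CPM of Zfp57 and 292 CPM of Mog.

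Zfp101, Zfp704 and Zfp276 were also higher in oligodendrocytes, with replicate 36 the lowest of the group for each. Zfp101 had 105, 88.7, 140 and 41.2 CPM in oligodendrocyte nuclei, against 14.3, 17.95, 31.5 and 28.98 CPM in neurons and 21.7, 17.2, 37.2 and 16.4 CPM in astrocytes. No oligodendrocyte library overlapped the other types. The log2 difference was -2.35 (SE 0.47, edgeR adjusted p = 0.00189) for neuron minus oligodendrocyte and -2.30 (SE 0.49, adjusted p = 0.00295) for astrocyte minus oligodendrocyte. Zfp704 had 306, 244, 254 and 127 CPM in oligodendrocyte nuclei. Neuron nuclei had 93.1, 104, 110 and 104 CPM and astrocyte nuclei 49.9, 49.97, 59.5 and 43.5 CPM, so the 3 types did not overlap. Its log2 differences were -1.54 (SE 0.34, adjusted p = 0.00384) and -2.41 (SE 0.36, adjusted p = 1.56e-04). Zfp704 also shares exonic sequence with another annotated gene. Zfp276 (-2.75 and -1.67) shares exonic sequence with Vps9d1 and Fanca, so its reads are uncertain, and its call against astrocytes was lost in 5 of the fits that each left out 1 library.

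Zfp14 and Zfp169 were higher in oligodendrocytes by an amount that depended on replicate 36. Zfp14 had 86.6, 66.3, 64.8 and 534 CPM in oligodendrocyte nuclei, 6.03 to 18.4 CPM in neurons and 7.44 to 20.3 CPM in astrocytes. All 4 oligodendrocyte libraries lay above every other. Its log2 difference was -4.74 (SE 0.84, edgeR adjusted p = 7.04e-04) for neuron minus oligodendrocyte and -2.95 without replicate 36, and -4.14 and -2.29 for astrocyte minus oligodendrocyte. Zfp169 had 161, 118, 107 and 1197 CPM in oligodendrocytes. Neurons had 55.8, 107, 68.5 and 77.03 CPM, where replicate 4 reached the lowest oligodendrocyte library, and astrocytes had 30.3 to 52.1 CPM. The log2 differences of -3.10 and -3.90 became -1.03 and -1.84 without replicate 36, both still past the threshold.

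Several calls were lost without that library. Zfp275 had 680 CPM there and 62.0 to 101 CPM in the rest of its group, Zfp444 had 323 against 14.9 to 26.2 CPM, and Zfp622, a factor of large ribosomal subunit maturation, had 91.1 against 11.9 to 14.0 CPM. Zfp335, a nuclear hormone receptor coregulator whose loss in humans causes microcephaly, had 173 CPM against 25.7 to 38.6 CPM. Without replicate 36 the neuron minus oligodendrocyte log2 differences of these genes were -0.14, -0.05, -0.52 and -0.65, none past the threshold. Each of these calls, with adjusted p between 0.0435 and 0.0495 in edgeR, was also lost on leaving out any 1 of the 8 neuron and astrocyte libraries. The call of Zfp800 between astrocytes and oligodendrocytes was lost too (this gene is outside the naming rule and was picked after its value was seen).

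Zfp462 and Zfp609, known from human neurodevelopmental disorders and from cortical development, were higher in oligodendrocytes than in neurons, again less so without replicate 36. Zfp462 had 280, 371, 247 and 853 CPM in oligodendrocytes and 109, 268, 147 and 151 CPM in neurons, where replicate 4 overlaps the oligodendrocyte range. The log2 difference was -1.98 (SE 0.53, edgeR adjusted p = 0.0126), and -1.14 without replicate 36. Zfp609, which binds the cohesin loader Nipbl, gave -1.91 (adjusted p = 0.0228) and -0.84 without it, and was lost on leaving out any 1 neuron library. Zfp579 had 36.8, 89.6, 12.7 and 20.6 CPM in oligodendrocytes against 3.32 to 13.6 CPM in neurons (-3.02, SE 0.79, adjusted p = 0.0107), where neuron replicate 2 overlaps. Zfp532 had 1037, 1053, 585 and 796 CPM in oligodendrocytes against 288 to 395 CPM in neurons, a log2 difference of -1.68 (SE 0.38, adjusted p = 0.00411), and astrocytes at 342 to 854 CPM overlapped the oligodendrocytes.

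Zfp521 showed the opposite pattern. It encodes a nuclear cofactor of neural differentiation that is related to Zfp423 and binds EBF factors. Its level was 555, 522, 300 and 381 CPM in neuron nuclei and 502, 342, 231 and 333 CPM in astrocyte nuclei. Oligodendrocyte nuclei had 44.7, 49.1, 41.7 and 43.1 CPM, all below every neuron and astrocyte library and close to one another, replicate 36 included. The log2 difference was 2.88 (SE 0.40, edgeR adjusted p = 7.98e-05) for neuron minus oligodendrocyte and 2.74 (SE 0.40, adjusted p = 1.15e-04) for astrocyte minus oligodendrocyte, and both held with any 1 library left out. Its relative Zfp423 had 17.5 to 63.3 CPM in neurons, 52.3 to 157 CPM in astrocytes and 0 to 77.2 CPM in oligodendrocytes, overlapping ranges, and passed no test between types except neuron against astrocyte without replicate 36.

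With all libraries, Zfp641 and Zfp516 marked astrocyte nuclei. Zfp641 had 90.8, 99.2, 156 and 116 CPM in astrocytes, 32.8, 29.6, 15.8 and 22.9 CPM in neurons and 6.48, 2.86, 9.69 and 0 CPM in oligodendrocytes. The 3 types did not overlap. The log2 difference was -2.32 (SE 0.63, edgeR adjusted p = 0.0142) for neuron minus astrocyte, 4.40 (SE 0.70, adjusted p = 2.74e-04) for astrocyte minus oligodendrocyte and 2.08 (SE 0.64, adjusted p = 0.0271) for neuron minus oligodendrocyte. The first of these was lost without neuron replicate 26, the second in none of the fits with 1 library left out, and the last without neuron replicate 2 or 4 or oligodendrocyte replicate 12. Zfp516, a transcription factor of brown fat that activates Ucp1, had 109, 73.0, 74.4 and 123 CPM in astrocytes against 16.7 to 25.6 CPM in neurons and 0 to 33.4 CPM in oligodendrocytes. Its log2 differences were -2.50 (SE 0.74, adjusted p = 0.0239) and 2.31 (SE 0.73, adjusted p = 0.0390), lost in 5 and 9 of the fits with 1 library left out. Zfp217, picked after its value was seen, was below the filter with all libraries and entered the test without oligodendrocyte replicate 36. Its log2 difference was then -5.13 (SE 0.77) for neuron minus astrocyte and 3.83 (SE 0.79) for astrocyte minus oligodendrocyte. A gene can pass the filter through 1 type alone, and Zfp217 was highest in astrocytes. Its values are therefore description only, although it is counted among the astrocyte members without replicate 36.

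Further members were higher in astrocytes than in oligodendrocytes. Zfp30 (log2 difference 2.48), Zfp772 (2.38) and Zfp703 (2.34) passed the test with and without replicate 36, and the last was lost without astrocyte replicate 32 or 6 or oligodendrocyte replicate 10. Zfp219, a partner of the cartilage factor SOX9, gave 2.60 (SE 0.85, edgeR adjusted p = 0.0431), but had 19.5 to 149 CPM across astrocyte libraries, was lost in 7 of the fits with 1 library left out and shares exonic sequence with Arhgef40 and Tmem253. Zfp365 went the other way at -2.26 (SE 0.56, adjusted p = 0.00897), and -1.38 without replicate 36 (adjusted p = 0.00212), with 75.7, 66.7, 79.3 and 220 CPM in oligodendrocytes and 20.99 to 43.7 CPM in astrocytes.

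In neuron nuclei Zfp711, Zfp599 and Zfp831 stood above astrocytes, all at low levels. Zfp711 is X-linked, binds the histone demethylase PHF8 and is mutated in intellectual disability. It had 8.29, 17.1, 45.2 and 47.3 CPM in neurons, 1.71, 5.86, 0 and 3.09 CPM in astrocytes and 6.48, 1.91, 10.8 and 1.25 CPM in oligodendrocytes. Neurons lay above all astrocytes, while neuron replicate 2 lay within the oligodendrocyte range. Its log2 difference was 2.91 (SE 0.79, edgeR adjusted p = 0.0138) for neuron minus astrocyte and 2.16 (SE 0.72, adjusted p = 0.0383) for neuron minus oligodendrocyte, lost in 2 and 6 of the fits with 1 library left out. Zfp599 had 5.85 to 14.5 CPM in neurons, 0 to 1.71 CPM in astrocytes and 0 to 2.98 CPM in oligodendrocytes, with log2 differences of 2.60 and 2.13, lost in 2 and 3 of those fits. Only the neuron libraries reached the filter on low counts for Zfp599. It entered the test through the group where it is high, so its calls are description only. Zfp831 had 16.8 to 29.01 CPM in neurons and 1.71, 3.90, 14.9 and 2.16 CPM in astrocytes, a log2 difference of 2.66 (SE 0.88, adjusted p = 0.0430) that was lost in 8 of the fits with 1 library left out. None of the 5 calls between neurons and astrocytes held in every such fit, against 11 of 22 between neurons and oligodendrocytes and 10 of 18 between astrocytes and oligodendrocytes.

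**Figure D4:**
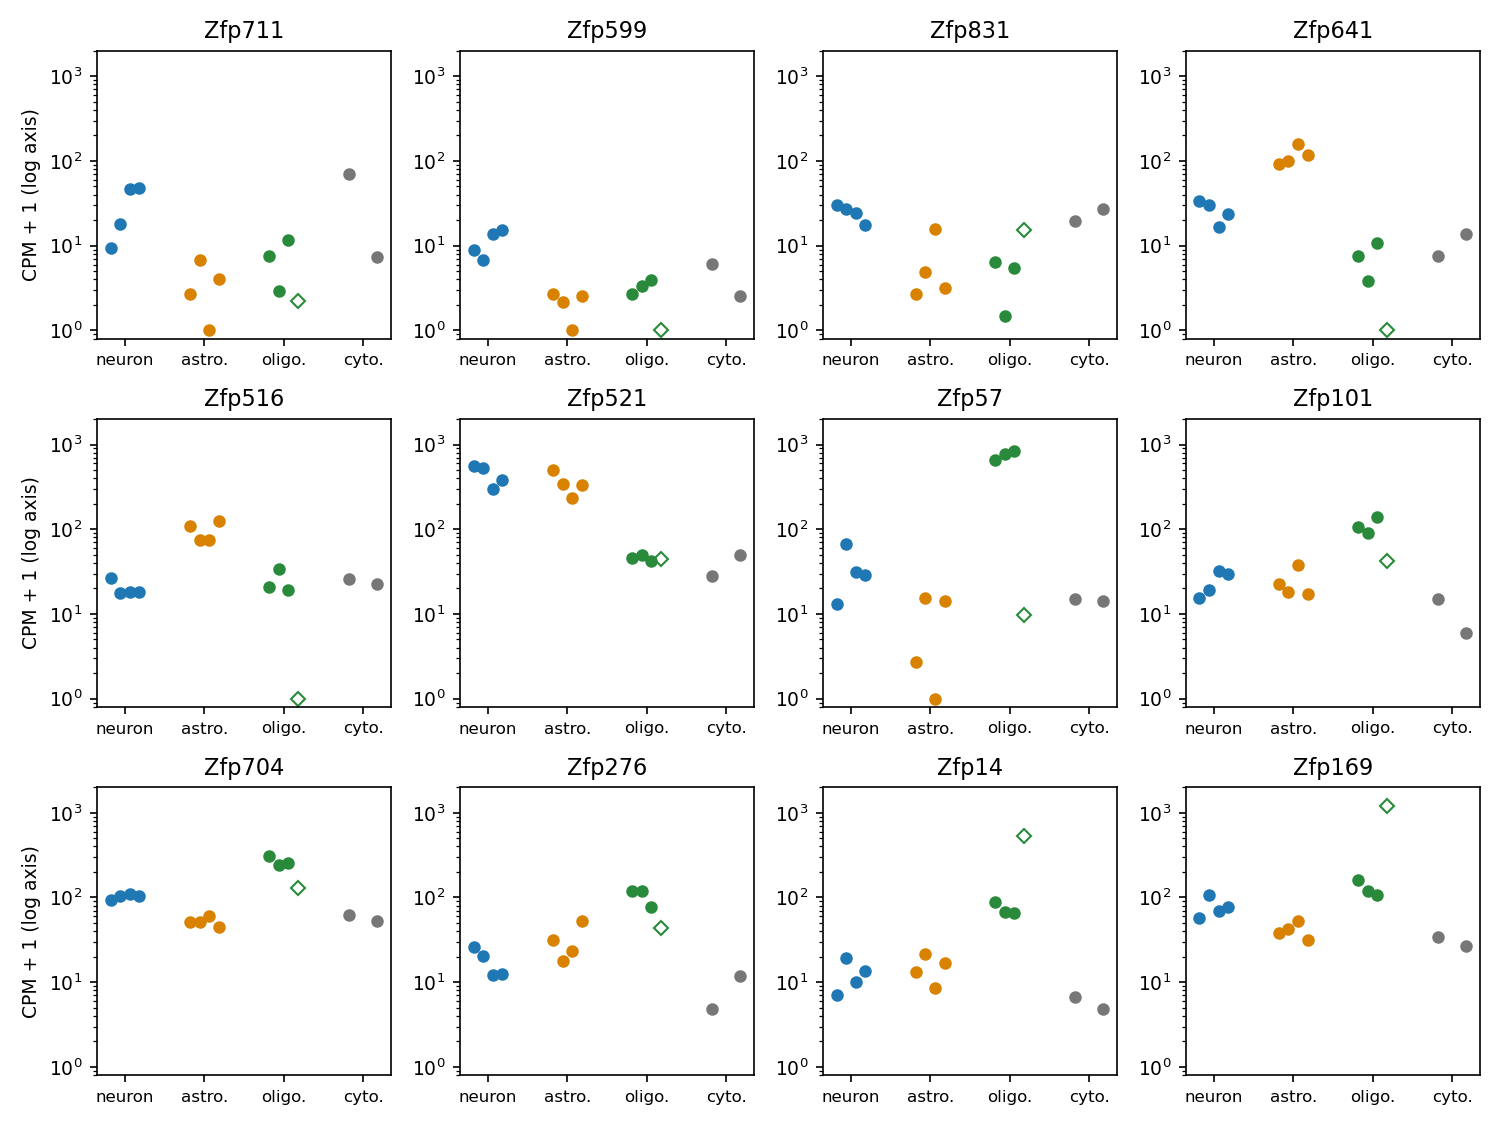
Level of 12 members named for the sorted types, as CPM + 1 on a log axis, with 1 point per library of sorted neurons, astrocytes and oligodendrocytes and of cytoplasm, and an open diamond for sorted oligodendrocyte replicate 36. Zfp521 is low in all 4 oligodendrocyte libraries (41.7 to 49.1 CPM), Zfp641 is high in all 4 astrocyte libraries (90.8 to 156 CPM), and the diamond stands apart for Zfp57, Zfp14 and Zfp169.

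Other members with well-known general roles passed no test between types in the fit of all 12 libraries. Zfp24, which is needed for oligodendrocytes to mature and myelinate, had 36.2 to 71.4 CPM in neurons, 78.0 to 103 CPM in astrocytes and 60.4, 27.7, 79.3 and 1.25 CPM in oligodendrocytes. Zfp207 had 403 to 509 CPM in neurons, 275 to 417 CPM in astrocytes and 110 to 350 CPM in oligodendrocytes, with replicate 36 lowest. Zfp281, a regulator of pluripotency, had 83.6 to 192 CPM, 52.0 to 155 CPM and 130 to 278 CPM in the same order. Zfp148, a GC-box binding factor, had 157 to 229 CPM, 78.7 to 179 CPM and 62.0 to 267 CPM. Neurons and astrocytes overlapped for each of these except Zfp24, which was also called between them without replicate 36 (adjusted p = 0.0241), as was Zfp148 between neurons and oligodendrocytes (adjusted p = 0.0449).

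RNA-related and signalling members gave overlapping ranges too. Zfp106, an RNA-binding protein needed for motor neurons, had 248 to 398 CPM in neurons, 213 to 402 CPM in astrocytes and 96.1 to 271 CPM in oligodendrocytes. Zfp451, a SUMO ligase, had 153 to 363 CPM, 145 to 268 CPM and 120 to 248 CPM in that order, and Zfp292, linked to intellectual disability in humans, had 153 to 343 CPM, 112 to 223 CPM and 115 to 256 CPM. Zfp638, a partner of the HUSH complex in silencing unintegrated retroviral DNA, had 105 to 285 CPM, 110 to 194 CPM and 94.2 to 351 CPM.

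Lower members with known roles behaved likewise. Zfp91, an E3 ligase of the noncanonical NF-kB route, had 49.4 to 89.2 CPM in neurons, 48.5 to 81.9 CPM in astrocytes and 3.74 to 72.3 CPM in oligodendrocytes. Zfp110 and Zfp369, which bind the neurotrophin receptor p75, had 8.74 to 51.1 CPM and 4.37 to 83.9 CPM over the 12 sorted libraries. Zfp326, part of a complex that links transcript elongation to splicing, had 0.624 to 24.9 CPM, and Zfp618, which binds 5-hydroxymethylcytosine, had 0.624 to 20.5 CPM. Zfp64 had 0 to 21.4 CPM, Zfp830 had 0 to 37.2 CPM and Zfp189 had 0 to 59.5 CPM. None of these passed a test between types with or without replicate 36. Zfp407 passed none between types either, and was higher in nuclei than in cytoplasm at 47.4 to 141 CPM against 23.2 and 31.8 CPM, with no overlap (log2 difference 1.61, SE 0.53, edgeR adjusted p = 0.0301). That call was lost in 7 of the fits with 1 library left out: without either cytoplasmic library, sorted astrocyte 8, sorted neuron 26, 28 or 4, or sorted oligodendrocyte 12.

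The members' median difference between nuclei and cytoplasm lay above that of other genes, by an amount that depended on which cytoplasmic library was used. In the fit of 12 sorted and 2 cytoplasmic libraries, 16 members were higher in nuclei (9.04% of all genes were) and 5 were higher in cytoplasm (17.7% of all genes were). Together this was 9.63% of 218 members, against 26.7% of all genes. The nuclear side weighs the sorted types equally and holds no other cells, while the cytoplasm is that of whole brain. Differences between compartments therefore cannot be told apart here from differences in cell composition. The median log2 difference, sorted nuclei minus cytoplasm, was 0.44 over members, -0.08 over all genes and -0.06 over the 10085 protein-coding genes with the same presort minimum. That minimum was set on presort nuclei of the same mice, so a nuclear level helped to choose the members, and the genes sharing it are the closer background. Size-factor scaling (RLE) lowered both medians, to 0.21 and -0.32, and gave 13 members higher and 7 lower. Without cytoplasmic replicate 1 the members' median was 1.13, against -0.02 over all genes. Without cytoplasmic replicate 2 it was 0.24, against 0.13 over all genes and 0.03 over those with the same presort minimum. Without sorted oligodendrocyte replicate 36, 41 members were higher and 25 lower, 30.3% against 46.9% of all genes, and the median was 0.24 against -0.34 (-0.33 with the same presort minimum). Mitochondrially encoded RNA was 5.89% of counts in cytoplasmic replicate 1 and 0.517% in replicate 2, and 0.0222% to 0.380% in the nuclear libraries. Its part in these differences was not tested.

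By class, the median log2 difference against cytoplasm was 0.75 over the 84 KRAB members and 0.37 over the 134 others. Of the KRAB members 7 (8.33%) passed the test, 7 as higher in nuclei and 0 as higher in cytoplasm (14 at an unadjusted p under 0.05 in either direction with edgeR), and of the others 14 (10.4%) passed, 9 and 5. Both shares lay below the 26.7% of all genes, and the 7 KRAB members higher in nuclei are about the share of all genes that were (9.04%). Without replicate 36 the KRAB counts were 15 and 3, those of the others 26 and 22, and the medians 0.47 and 0.12. Members with a Zfp gene within 500 kb gave 10 higher and 0 lower of 132, 7.58%, with a median of 0.54, against 6 and 5 of 86 and a median of 0.16 for members with none. Without replicate 36 these counts were 26 and 5, and 15 and 20, with medians of 0.29 and -0.03. The KRAB pattern and clustering overlap, as given above, and no test compared the classes. The classes are those with and without the pattern, which can miss KRAB domains.

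Zfp619 and Zfp703 were the only members whose call against cytoplasm held with any 1 library left out. Zfp619, with 33 fingers, had 1.57 and 0.77 CPM in cytoplasm and 10.9 to 44.3 CPM over the 12 sorted libraries, with no overlap. Its log2 difference was 4.14 (SE 0.83, edgeR adjusted p = 0.00116). Zfp703 went the other way, with 77.3 and 100.1 CPM in cytoplasm against 0 to 27.5 CPM in sorted nuclei, a log2 difference of -3.21 (SE 0.52, adjusted p = 2.01e-04). Zfp703 shares exonic sequence with another annotated gene, so its reads are uncertain.

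The other members higher in nuclei included regulators of lipid genes, imprinting and viral promoters. Zfp202, a SCAN-domain repressor of lipid metabolism genes, had 2.24 and 2.83 CPM in cytoplasm and 1.25 to 89.3 CPM in sorted nuclei, where only oligodendrocyte replicate 36 lay below cytoplasm (log2 difference 2.88, SE 0.91, edgeR adjusted p = 0.0238). Zfp108 gave 2.82, Zfp14 gave 2.79 and Zfp317 gave 2.60. Zfp282, first described as a protein binding a retroviral promoter, had 1.79 and 3.86 CPM in cytoplasm and 3.12 to 23.7 CPM in nuclei (2.39). Zfp568, which represses a placental Igf2 transcript, had 4.71 and 8.49 CPM in cytoplasm and 20.7 to 55.4 CPM in nuclei, with no overlap (2.30, SE 0.64, adjusted p = 0.0121). Zfp445, a partner of Zfp57 in imprint maintenance that is outside the naming rule and was picked after its value was seen, gave 1.91 (adjusted p = 0.0242), and Zfp521 gave 2.31 (adjusted p = 0.00504). Of the calls named in this paragraph, all but Zfp521 were lost on leaving out either cytoplasmic library, and Zfp521 was lost without replicate 1, with 1 cytoplasmic sample left in each such fit. Zfp14 was lost on leaving out any of the 8 sorted neuron and astrocyte libraries as well and was 1.87 without oligodendrocyte replicate 36, where it passed. Zfp108 was lost in 4 more fits, without sorted astrocyte 8 or sorted neuron 26, 28 or 4, and Zfp445 without sorted neuron 26.

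Higher in cytoplasm were Zfp365, Zfp706, Zfp711 and Zfp644 beside Zfp703. Zfp365 had 473 and 208 CPM in cytoplasm and 20.99 to 220 CPM in sorted nuclei, where only oligodendrocyte replicate 36 reached the lower cytoplasmic value (-2.40, SE 0.52, edgeR adjusted p = 0.00215, and -3.02 without that library). Zfp706, which encodes one of the smallest proteins of the family, had 213 and 129 CPM against 29.95 to 87.99 CPM, with no overlap (-1.72, SE 0.43, adjusted p = 0.00587). Zfp711 (-2.46) and Zfp644 (-1.44), a partner of the histone methyltransferases G9a and GLP, rested on cytoplasmic replicate 1. Zfp711 had 69.7 and 6.43 CPM and Zfp644 had 1230 and 299 CPM in the cytoplasmic libraries, and without replicate 1 their differences were 0.23 and 0.02. All 4 calls of this paragraph were lost without that library.

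Presort nuclei against cytoplasm are given as description, since presort levels chose the members. In that fit 142 members passed the filter on low counts, and no calls of members are counted. The median log2 difference, presort minus cytoplasm, was 0.29 over members and -0.10 over all genes, and 0.42 over the KRAB members and 0.11 over the others. This comparison shares its cytoplasmic libraries with the preceding one. Zfp207 had a log2 difference of 1.13 here and 1.21 in sorted nuclei (edgeR adjusted p = 0.0527 in the latter).

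**Figure D5:**
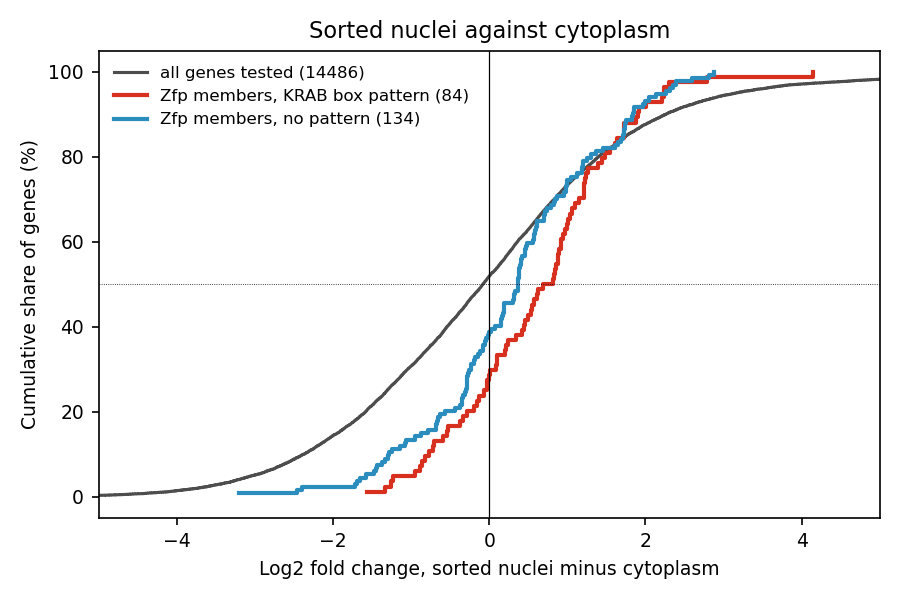
Cumulative share of genes, in percent, by log2 difference of sorted nuclei minus cytoplasm, for the 84 KRAB members, the 134 other members and all genes tested. The curves cross 50% at medians of 0.75, 0.37 and -0.08, and the ends of the members' curves are Zfp619 at 4.14 and Zfp703 at -3.21.

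No member passed a test of sex in sorted nuclei in the fit of all 12 libraries (0.0461% of all genes, 6 of 13029, did). With edgeR 17 members had an unadjusted p under 0.05, and DESeq2 called 4, namely Zfp62, Zfp748, Zfp882 and Zfp260. Zfp62 had 218 to 592 CPM in female and 76.1 to 224 CPM in male sorted libraries, ranges that overlap slightly. In presort nuclei it had 228 to 578 CPM in females and 80.8 to 183 CPM in males, which do not overlap. Presort and sorted libraries come from the same mice, and sex cannot be told apart from the block of replicate numbers. Its log2 difference, male minus female, was -1.55 (SE 0.29, edgeR adjusted p = 0.153), and -1.43 without oligodendrocyte replicate 36 (adjusted p = 0.00837), when Zfp846 (-1.67) and Zfp748 (-1.53) also passed. Zfp748, Zfp846, Zfp882 and Zfp260 were picked after their values were seen. For DESeq2, the unadjusted counts and the fit without replicate 36, shares of all genes are not given here. Those counts show only how calls move with the setting and are no result about the members. The interaction of sex with type called 0 members and 0.0% of all genes, with 4 members at an unadjusted p under 0.05 in edgeR.

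A list of 29 names was drawn up for KRAB corepressor and heterochromatin genes, not all of them known routes of KRAB action. It matched 28 counted genes, since Tasor and Fam208a name the same gene, and 27 could be tested. The list also holds Zdbf2, which is not a corepressor, and its calls are in the counts. Between neurons and astrocytes 0 passed (1 at an unadjusted p under 0.05 with edgeR), and 5 passed without replicate 36, 2 higher and 3 lower in neurons. Between neurons and oligodendrocytes 5 were higher in oligodendrocytes, and without replicate 36 there were 5 higher there and 1 higher in neurons. Between astrocytes and oligodendrocytes 2 were higher in oligodendrocytes, and without replicate 36 there were 3 higher there and 1 higher in astrocytes. The shares called, 0%, 18.5% and 7.41%, lay below those of all genes given above (19.4%, 23.1% and 17.1%). Trim28 had 26.2 to 41.1 CPM in neurons, 14.9 to 25.6 CPM in astrocytes and 40.6, 48.6, 36.5 and 0.624 CPM in oligodendrocytes. It passed no test in the fit of all libraries, and without replicate 36 it was lower in astrocytes than in oligodendrocytes (-0.97, edgeR adjusted p = 0.0362). Higher in oligodendrocytes than in neurons were the methyltransferase genes Ehmt2 (-2.98, neuron minus oligodendrocyte, and -1.01 and not past the threshold without replicate 36), Suv39h1 (-2.01, and -1.24 without it) and Dnmt3a (-1.53, and -1.24), and the HUSH complex genes Pphln1 (-2.09, and -1.51) and Fam208a (-1.13, and -0.91). Against cytoplasm 2 of 27 were higher in sorted nuclei, Nsd1 (1.82) and Atrx (1.81), and 4 were lower, among them the HP1 gene Cbx3 (-3.90), Zdbf2 (-1.935) and Chd3 (-2.21, and -3.004 without replicate 36). That is 22.2% of the list against 26.7% of all genes, and without replicate 36 there were 4 higher and 8 lower, against 46.9% of all genes.

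Other zinc finger families were counted beside the members, with all libraries and then without oligodendrocyte replicate 36. For neuron against astrocyte, neuron against oligodendrocyte and astrocyte against oligodendrocyte in turn, 5, 6 and 2 of 35 ZBTB genes passed (2 and 3, 2 and 4, and 0 and 2 higher and lower in the first), and 13, 7 and 3 without the library. Of 20 SCAN genes 0, 3 and 1 passed (0 and 0, 1 and 2, and 0 and 1), and 5, 4 and 1 without it. Of 18 KLF and SP genes 3, 6 and 6 passed (1 and 2, 1 and 5, and 1 and 5), and 9, 7 and 8 without it. Of 25 Zfp genes with a letter suffix 5, 6 and 4 passed (2 and 3, 2 and 4, and 2 and 2), and 8, 8 and 5 of 26 without it. Of 13 CCCH genes, which bind RNA, 0, 0 and 0 passed (1, 0 and 0 at an unadjusted p under 0.05 with edgeR), and 1, 1 and 0 without it. The shares over all genes are those given above, 19.4%, 23.1% and 17.1% with all libraries and 37.6%, 35.4% and 26.3% without the library.

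Against cytoplasm the counts higher and lower in nuclei were 4 and 2 of 35 ZBTB genes, and 9 and 6 without replicate 36. They were 3 and 0 of 21 SCAN genes, and 5 and 1 without it, and 0 and 4 of 20 KLF and SP genes, and 0 and 9 without it. Zfp genes with a letter suffix gave 4 and 4 of 27, and 5 and 6 without it, and CCCH genes 1 and 1 of 14, and 2 and 3 without it. Over all genes 26.7% and 46.9% passed.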

How the data were processed

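The deposited values are raw counts, whole numbers that the authors did not normalize, for each gene in 26 libraries. Tools named in the submitters' processing notes are STAR, Bowtie2, Trimmomatic, edgeR and bedtools. For these counts the build, annotation and strand setting were not given in the sources used here. The NuGEN Ovation RNA-seq V2 kit named in the labels' protocols keeps no strand. Counts are reads, so floors cover counting error only. Symbols, biotypes, coordinates and proteins are those of GENCODE M21 on GRCm38, which lists 26495 of the identifiers and lacks 1007 entries. Promoters came from RefSeq (GRCm38.p6). One gene of this name pattern is not reported here.

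The members, the gene lists and the tests were chosen with earlier results of these data known. CPM is a count over the library's total (134357 to 4461568). Differences were tested over all genes with edgeR's quasi-likelihood test (version 4.0.16, R 4.3.3, TMM scaling, filterByExpr with a minimum count of 10, two-sided, Benjamini-Hochberg at 0.05). All 12 sorted libraries entered 1 fit, and those with the 2 cytoplasmic libraries another. Standard errors were derived from the F statistic. On simulated counts of 12692 genes for neuron against astrocyte, 20% of genes changed 4-fold and 93% of those changed 16-fold were recovered, and 87% and 100% of 13125 genes' changed ones without sorted oligodendrocyte replicate 36. A chi-square comparison of replicates gave 1.97 or more per degree of freedom, so none was a copy of another.

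The text names the 8 members highest in presort nuclei, up to 6 called in each direction of each comparison by fold, members enriched in 1 type, 3 on each side of the level minimum, members with a textbook role, and members called by sex. A member named outside this rule was picked after its values were seen. Alternatives were RLE factors, total counts, no mitochondrial genes, no filter, DESeq2 1.42.0, limma 3.58.1 (voom with quality weights), sex as a covariate, 1 sex or 1 line alone, all 24 nuclear libraries, other level minimums and leaving out each library. Leaving out sorted oligodendrocyte 36 together with sorted astrocyte 30, and the alternatives for sex, were added after seeing the data.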

Additional observations from a re-analysis of the deposited data

Results flagged for a closer look

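In 14 of 90 groups of 4 libraries, 1 library lay far from the rest of its group (its gap to the nearest, over the range, exceeded Dixon's 95% value). The groups include those of 28 members named for a comparison, which were chosen by calls in these same libraries. Chance gives about 1 of 20 among groups not so chosen, so that rate is no measure for this count. Sorted oligodendrocyte replicate 36 accounted for 7. There Zfp282 had 3.12 CPM against 17.7 to 20.5 CPM in the rest of the group. The same library was high for Zfp275 at 680 CPM (62.0 to 101), Zfp365 at 220 CPM (66.7 to 79.3) and Zfp444 at 323 CPM (14.9 to 26.2). It was also high for Zfp169 at 1197 CPM (107 to 161), Zfp622 at 91.1 CPM (11.9 to 14.0) and Zfp14 at 534 CPM (64.8 to 86.6).

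Sorted neuron replicate 2 accounted for 4. Zfp108 had 15.4 CPM there (21.7 to 23.0 in the rest), Zfp219 44.8 CPM (9.19 to 14.9), Zfp579 13.6 CPM (3.32 to 4.18) and Zfp516 25.6 CPM (16.7 to 17.2). Sorted astrocyte replicate 30 accounted for 3. It had 89.3 CPM of Zfp202 (17.0 to 17.5), 14.9 CPM of Zfp831 (1.71 to 3.90) and a median member level of 29.8 CPM (26.5 to 27.1). In this library, the shallowest, 1 read is worth several CPM.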

How the results depend on the processing

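Shares of all genes called under each setting are not set beside the counts in this section. The counts show how calls move with the setting and are no result about the members. Calls between neurons and astrocytes (5) became 14 with DESeq2, 19 in the fit of all 24 nuclear libraries, 43 with limma voom quality weights, 18 in males alone, 0 in females alone and 39 without sorted oligodendrocyte 36 and astrocyte 30. Between neurons and oligodendrocytes (22) they became 38, 75, 0 and 43 with the 24 libraries, voom, females alone and without those libraries. Between astrocytes and oligodendrocytes (18) they became 38, 44 and 0 with the 24 libraries, voom and females alone. Against cytoplasm the 21 calls became 37 with DESeq2, 45 for astrocytes alone, 0 for oligodendrocytes alone and 32 with no minimum presort level. The median of presort nuclei minus cytoplasm, 0.29, was 0.80 on total counts, where that of all genes moved from -0.10 to 0.45. For sex, DESeq2 gave 4 and no filter 1. Leaving out 1 library gave ranges of 1 to 36, 12 to 43 and 11 to 25 calls between types in the same order, 7 to 66 against cytoplasm, 0 to 3 for sex and 0 to 137 for the interaction of sex and type. The highest of these came without sorted oligodendrocyte 36, except 137 without oligodendrocyte 34, where 36 alone stands for females. The medians ranged from 0.24 to 1.13 for sorted and from 0.12 to 1.01 for presort nuclei minus cytoplasm. Single members kept direction and side of the threshold in 703 results, lost the threshold in 157 and reversed in 3: Zfp275, astrocyte minus oligodendrocyte, was 0.042 in males alone, and Zfp711 and Zfp644, sorted minus cytoplasm, ranged from -3.45 to 0.23 and from -2.27 to 0.024 over the fits with 1 library left out, the upper values without cytoplasmic replicate 1. The cause was not tested. The sorted types came from separate lines and so from separate mice, and no paired analysis was made. The fit of all 24 nuclear libraries held sorted and presort libraries of the same mice without a term for the animal. Its libraries are therefore not all independent, which limits its counts. Depth limits the lowest members, since 3 counts are up to 22.3 CPM.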
